A study of Mus musculus with 12 samples.

Results

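The genes described here are 10 chains of interferon and interleukin receptors, Il4ra, Il13ra1, Il13ra2, Il15ra, Il10rb, Il17ra, Ifnar1, Ifnar2, Ifngr1 and Ifngr2. They were picked by symbol from the 39179 genes of a count table, with no measured value in the rule, and all 10 were in the table. The table held RNA counts of mouse pancreatic stellate cells (PSCs, fibroblast-like cells of the pancreas, strain C57BL/6) that expressed mCherry from a lentivirus. Each of 3 cultures gave 4 libraries after 72 h. The mono-PSCs grew alone, the 2W-PSCs with pancreatic cancer cells (PCCs) labelled with EGFP, and the 3W-PSCs with the same PCCs and with macrophages (MØs) labelled with TagBFP. All were kept in Minimal Medium and sorted before RNA was extracted as cells positive for mCherry and negative for EGFP and TagBFP, a gate meant to leave out both partner cells. The PSCs, the PCCs (a mouse pancreatic cancer line kept with doxycycline) and the MØs (RAW264.7, a mouse macrophage line) were each a single line, so the libraries of a culture are repeats of the same cells and not separate animals. P-values therefore measure the spread between these libraries, which may be partly technical. Flasks were seeded with the same total number of cells, so the number of PSCs differed by design between cultures.

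Most of these receptors are pairs of chains. The type I interferon receptor joins Ifnar1 and Ifnar2, and the interferon γ receptor joins the ligand-binding Ifngr1 and the signalling chain Ifngr2. Il4ra pairs in cells outside the blood lineage with Il13ra1 to bind IL-4 or IL-13, and Il13ra2 binds IL-13 tightly with a short intracellular tail, for which it is known as a decoy. Il10rb is the shared chain of the receptors for IL-10, IL-22 and the type III interferons, Il17ra is the shared chain of the IL-17 receptors, and Il15ra holds IL-15 for presentation to other cells. None of the chains has a kinase of its own. The interferon receptors, the Il4ra and Il13ra1 pair and the Il10rb receptors signal through JAK kinases and STAT factors, while Il17ra works through the adaptor Traf3ip2. In fibroblasts IL-4 and IL-13 are known as inducers of matrix genes, and interferons and IL-17 as inducers of inflammatory genes.

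For 4 of the genes the 250 bases before the start site are shown, since the results turn on how their levels differed: Il13ra2, without a count in mono-PSCs, beside its relative Il13ra1, and Ifnar2 and Ifngr2, which lie in the same gene cluster and both rose in 3W-PSCs. The sequences are those of RefSeq on GRCm38.p6, each on the strand of its gene. Capitals mark every match, on either strand, to 4 of the motifs searched: TTCNNNGAA (STAT), the STAT6 form with 4 bases in place of 3 between TTC and GAA, the NF-κB form GGG and TTTCC with 2 bases between, and TGANTCA (AP-1). The windows are X:147429193-147429442 (minus strand) for Il13ra2, X:36111858-36112107 for Il13ra1, chr16:91372533-91372782 for Ifnar2 and chr16:91546809-91547058 for Ifngr2.
Il13ra2: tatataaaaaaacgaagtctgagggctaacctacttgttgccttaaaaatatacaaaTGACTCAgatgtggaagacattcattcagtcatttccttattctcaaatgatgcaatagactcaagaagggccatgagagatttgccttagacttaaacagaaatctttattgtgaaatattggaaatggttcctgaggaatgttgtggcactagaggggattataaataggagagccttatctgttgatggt
Il13ra1: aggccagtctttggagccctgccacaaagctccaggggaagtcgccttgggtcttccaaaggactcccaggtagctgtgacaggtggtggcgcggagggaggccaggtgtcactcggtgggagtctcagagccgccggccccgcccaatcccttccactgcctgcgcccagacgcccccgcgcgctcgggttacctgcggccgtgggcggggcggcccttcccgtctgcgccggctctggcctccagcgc
Ifnar2: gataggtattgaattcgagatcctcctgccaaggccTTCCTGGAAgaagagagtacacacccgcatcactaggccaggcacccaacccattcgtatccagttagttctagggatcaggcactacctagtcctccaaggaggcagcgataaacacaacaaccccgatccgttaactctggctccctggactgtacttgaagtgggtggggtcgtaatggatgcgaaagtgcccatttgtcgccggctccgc
Ifngr2: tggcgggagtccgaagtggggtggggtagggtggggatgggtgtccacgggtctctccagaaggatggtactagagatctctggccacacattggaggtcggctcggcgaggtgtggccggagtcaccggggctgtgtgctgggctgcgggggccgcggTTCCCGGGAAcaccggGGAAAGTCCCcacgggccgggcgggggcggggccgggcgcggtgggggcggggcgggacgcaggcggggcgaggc
The Il13ra2 window held 36% G or C and 1 CpG, and the Il13ra1 window 70.8% and 21 CpG. The Ifnar2 window held 54.0% and the Ifngr2 window 74.0% with 25 CpG. A TGANTCA match lay 193 bases before the start of Il13ra2. Ifnar2 had a TTCNNNGAA match 214 bases before its start. Ifngr2 had a STAT6 match 91 bases and an NF-κB match 75 bases before its start. Il13ra1 had none of these. Of the 10 receptor genes 8 had a promoter in the table, in 9 windows of 250 bases before to 50 after a start. The STAT motif was found in 2 of the 9, against 8.298% of all 32851 promoter windows of that length. The STAT6 form was found in 1 (6.953% of all), the NF-κB form in 2 (1.629%) and the AP-1 motif in 2 (7.808%). Neither the ISRE form, GAAA and GAAA with 2 bases between (3.443% of all), nor TTGCNNAA (C/EBP, 10.797%) was in any of the 9. No match in these genes overlapped another. A match is a string of letters and not a shown binding site.

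Libraries had total counts of 4561817 to 8093368, with 5286963 to 8093368 in mono-PSCs, 4561817 to 6907711 in 2W-PSCs and, in 3W-PSCs, 7205488 to 8061367. Stellate cell and fibroblast markers (12 genes, 10 of them with at least 10 counts in every library) had a summed level of 9185 to 12942 CPM when PSCs grew alone, 13232 to 20290 CPM beside PCCs and 7307 to 8861 CPM with both partners, the lowest of the 3. Sparc, Col1a1, Col1a2 and Vim made up most of the sum, whereas Des, a marker of stellate cells, had a mean of 0.728 to 1.68 CPM and Lum of 0.0996 to 0.695 CPM, near 0 in every culture. Of these markers 3 were called lower and 1 higher in 3W-PSCs against mono-PSCs. CPM are counts scaled to a common library size, here with TMM factors. As the 3′ kit yields about 1 fragment per transcript, CPM need no correction for length. Replicate 2 of the 2W-PSCs stood apart: over 11776 genes its Spearman correlations with the rest of its culture ran from 0.858 to 0.920, and those of the 15 remaining pairs of like libraries from 0.948 to 0.987. Macrophage markers (11 of 12 found by symbol) had a summed level of 1.93 to 7.83 CPM when PSCs grew alone, 3.24 to 11.5 CPM beside PCCs and 11.8 to 49.8 CPM with both partners, replicate 4 being the highest. Of these, 5 were at 0 in every mono-PSC library and 5 in every 2W-PSC library, Ptprc and Tyrobp among them, but none in every 3W-PSC library. Epithelial markers (12 genes) had a summed level of 0.484 to 2.46, 76.7 to 150 and 52.7 to 91.7 CPM in the same order. Krt7, Krt8, Krt18, Krt19 and Cdh1 made up most of the sum in the co-cultures. At 0 in every library of a culture were 5 of the epithelial markers in mono-PSCs, 4 in 2W-PSCs, Epcam among them, and 1 in 3W-PSCs. Some markers of both partner cells thus moved with the cultures, although the gate was set to leave these cells out. Their part in the receptor levels was not tested. In sorted bulk RNA, fewer cells of a type and less RNA per cell cannot be told apart.

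Relative to mono-PSCs, 3W-PSCs had higher RNA levels of 7 of the 9 receptor genes that could be tested, and 2W-PSCs of 1 of 8. Il4ra rose in both co-cultures, 4.17-fold in 2W-PSCs and 7.44-fold in 3W-PSCs. Il13ra1 rose 5.71-fold in 3W-PSCs, and Il13ra2, without a count in mono-PSCs, was at least 11.7-fold higher there. The 4 chains encoded in the cluster of chromosome 16, Ifnar2, Il10rb, Ifnar1 and Ifngr2, rose 1.68-fold to 2.40-fold in 3W-PSCs. The smallest of these rises, that of Ifnar1, was called in only 7 of 13 other settings, and its libraries overlapped those of mono-PSCs. Ifngr1 and Il17ra did not pass the test in any comparison. Calls were made with edgeR (quasi-likelihood) where the p-value, after Benjamini-Hochberg adjustment over every gene tested, was below 0.05.

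**Figure D1:**
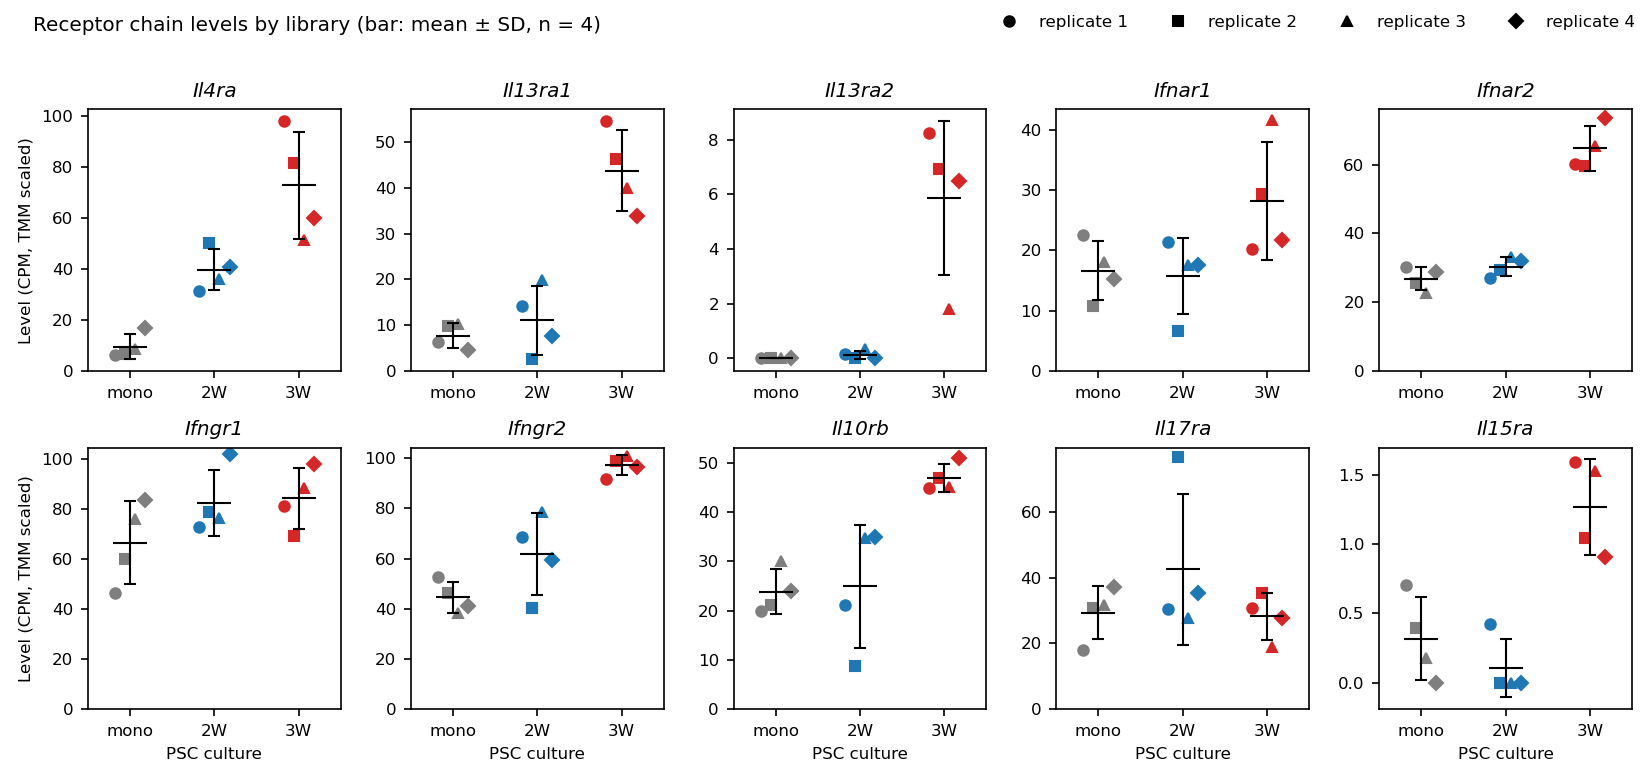
Level of each of the 10 receptor genes in CPM with TMM scaling (y axis, from 0, its range set for each gene) in mono-PSCs, 2W-PSCs and 3W-PSCs (x axis). Each symbol is a library, with its shape giving the replicate number, and the black bar with whiskers is the mean ± SD of 4 libraries. The 3W-PSC libraries lie above all others for Il4ra, Il13ra1, Il13ra2, Ifnar2, Ifngr2, Il10rb and Il15ra, and replicate 2 of the 2W-PSCs stands alone at 76.8 CPM for Il17ra.

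These counts were set against the share of all genes that passed the same test. For 2W-PSCs against mono-PSCs, 1 of the 8 receptor genes tested was called higher and 0 lower, where 0.839% and 0.152% of 11199 genes were. In 3W-PSCs against mono-PSCs, 7 of 9 were called higher and 0 lower, where 13.4% and 13.0% of 11551 genes were. In 3W-PSCs against 2W-PSCs, 4 of 9 were called higher and 0 lower, where 5.73% and 4.95% of 11513 genes were. At an unadjusted p under 0.05 the receptor genes higher numbered 1, 7 and 7 in the 3 comparisons and those lower 0, and DESeq2 called 1, 7 and 6 higher and 0 lower. With a log2 fold change above 1 as well, 1, 5 and 3 receptor genes were called, against 0.777%, 7.85% and 3.82% of all genes. The lowest library of the first culture lay above the highest of the second for 1, 6 and 6 of the receptor genes tested, as it did for 3.29%, 13.7% and 11.5% of all genes. The median log2 fold change of the receptor genes tested was 0.40, 1.12 and 0.88, beside 0.02, 0.01 and 0.0025 over all genes. Genes that passed the filter on low counts only through the culture in which they were high had to differ, which holds for Il13ra2 among these. Il13ra2 was counted as higher by each rule above in both comparisons with 3W-PSCs. The edgeR counts and medians of these comparisons were therefore partly set by the filter, and they do not stand for all 10. The comparisons share libraries and are not independent of each other.

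**Figure D2:**
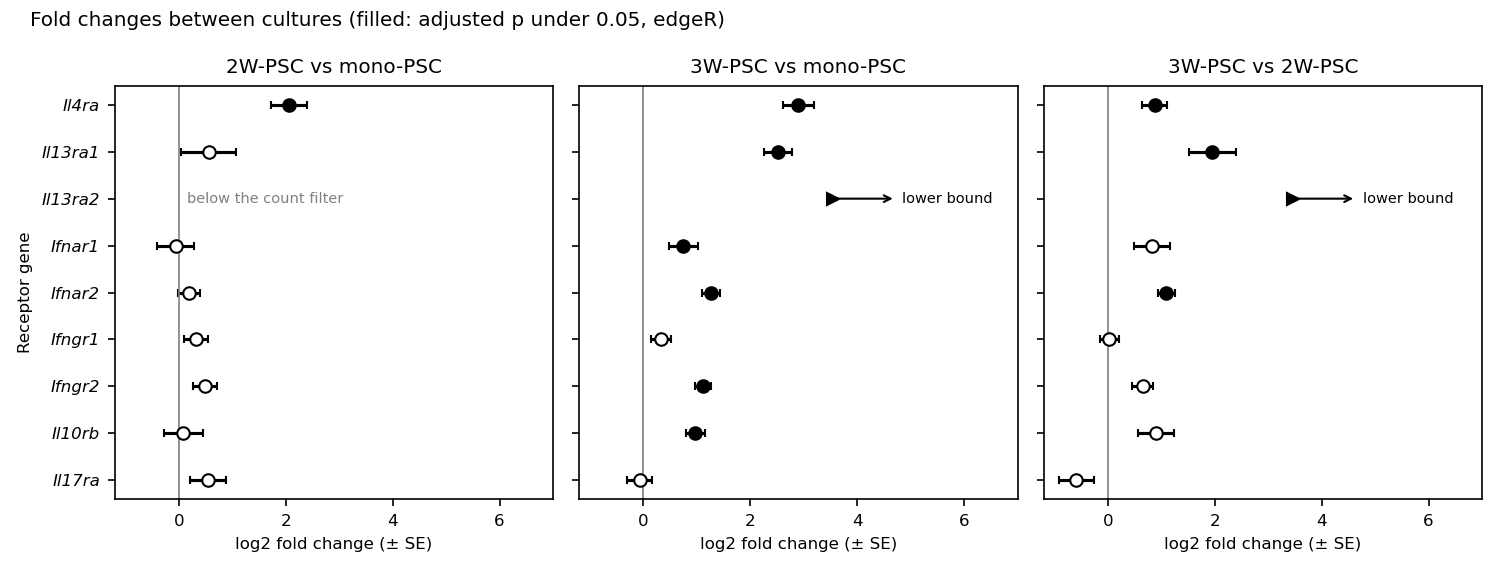
Log2 fold change with its SE (x axis) of 9 receptor genes (y axis) in 2W-PSCs against mono-PSCs, 3W-PSCs against mono-PSCs and 3W-PSCs against 2W-PSCs. Filled circles passed an adjusted p of 0.05 in edgeR, open circles did not, and the triangle with an arrow is the lower bound for Il13ra2. Il4ra is the one filled circle in the left panel, and Ifngr1 and Il17ra are open in every panel.

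Il4ra (ENSMUSG00000030748, GRCm38 chromosome 7, 125552120 to 125579474, plus strand) encodes the chain that binds IL-4. Its level in the mono-PSC libraries 1 to 4 was 6.14, 6.66, 8.52 and 16.7 CPM, from 34 to 138 counts. In 2W-PSCs it was 31.5, 50.3, 36.1 and 40.8 CPM, and in 3W-PSCs 98.0, 81.8, 51.5 and 59.9 CPM. Every 2W-PSC library lay above every mono-PSC library, and every 3W-PSC library above every 2W-PSC library, although the highest 2W-PSC library and the lowest 3W-PSC library were almost level. The log2 fold change of Il4ra was 2.06 (SE 0.33, edgeR adjusted p = 0.00834) in 2W-PSCs and 2.90 (SE 0.29, adjusted p = 1.11e-06) in 3W-PSCs, both against mono-PSCs. Between the co-cultures it was 0.88 (SE 0.24, adjusted p = 0.0373), a call that was made in only 5 of 13 other settings and in 2 of the 8 fits that left out a library (adjusted p of Il4ra from 0.00391 to 0.120 over these settings). Without 3W-PSC replicate 4, where macrophage markers were highest, the log2 fold change of Il4ra was 2.98 against mono-PSCs (adjusted p = 2.25e-06) and 0.97 against 2W-PSCs (adjusted p = 0.0578). The rise of Il4ra in 2W-PSCs was not called without mono-PSC replicate 3 (2.01, adjusted p = 0.0503). Il4ra is among the genes that the study itself named for these cells, so its rise is no independent finding. Of its 6002 exonic bases 571 overlap Gm44876 on the opposite strand, and the strand setting of the counting is not given in the sources used here.

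Il13ra1 (ENSMUSG00000017057, chromosome X, 36112110 to 36171259, plus strand), the partner of Il4ra for IL-13, was counted 36, 50, 58 and 37 times in mono-PSCs, at 6.32, 9.79, 10.3 and 4.48 CPM. The 2W-PSC libraries were at 14.2, 2.7, 19.9 and 7.55 CPM and the 3W-PSC libraries at 54.6, 46.4, 40.1 and 33.9 CPM. All 3W-PSC libraries lay above all others, whereas the 2W-PSC libraries spread over and beyond the range of the mono-PSCs. The log2 fold change was 2.51 (SE 0.26, edgeR adjusted p = 1.68e-06) in 3W-PSCs against mono-PSCs and 1.96 (SE 0.44, adjusted p = 0.0166) against 2W-PSCs. The latter was called in 10 of 13 other settings and was 1.66 (adjusted p = 0.000681) without 2W-PSC replicate 2. For 2W-PSCs against mono-PSCs Il13ra1 was not called (0.56, SE 0.51, adjusted p = 0.999), and without that library the difference was 0.86 (adjusted p = 0.479).

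Il13ra2 (ENSMUSG00000031289, chromosome X, 147383476 to 147429192, minus strand), the decoy chain, had 0 counts in all 4 mono-PSC libraries. It had 1, 0, 2 and 0 counts in 2W-PSCs and 62, 60, 14 and 50 counts in 3W-PSCs, where the levels were 8.23, 6.94, 1.78 and 6.50 CPM. Replicate 3 of the 3W-PSCs was well below the other libraries of that culture and above every library of the other cultures. Set against 3 counts per library, the mean of the 3W-PSCs was at least 11.7-fold higher than that of mono-PSCs (edgeR adjusted p of Il13ra2 = 4.36e-05) and at least 11.1-fold higher than that of 2W-PSCs (adjusted p = 0.0021). The same bound for the lowest 3W-PSC library alone was 3.55-fold and 3.37-fold. Both calls held in 13 of 13 other settings. Il13ra2 passed the count filter only in comparisons with 3W-PSCs, in which it was high, so these calls were partly set by the filter. The difference between 2W-PSCs and mono-PSCs, 0.115 CPM, was below the count filter of the fit, and a two-sided exact permutation test of Il13ra2 gave p = 0.429, with 0.0286 the smallest p that 4 libraries against 4 can reach.

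The balance of these 3 chains was read within each library. The ratio of Il13ra1 to Il4ra counts was 0.99 ± 0.52 (SD, n = 4) in mono-PSCs, 0.31 ± 0.23 in 2W-PSCs and 0.62 ± 0.11 in 3W-PSCs. It was above 1 in 3 of the 4 mono-PSC libraries (1.03, 1.47 and 1.21) and 0.268 in replicate 4. No co-culture library reached 1, but the mono-PSC range held all 3W-PSC values and part of the 2W-PSC values. The range was 0.0537 to 0.551 in 2W-PSCs and, in 3W-PSCs, 0.557 to 0.778. The ratio of Il13ra2 to Il13ra1 was 0.134 ± 0.063 in 3W-PSCs, from 0.0444 in replicate 3 to 0.192 in replicate 4. These ratios are given without a test.

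**Figure D3:**
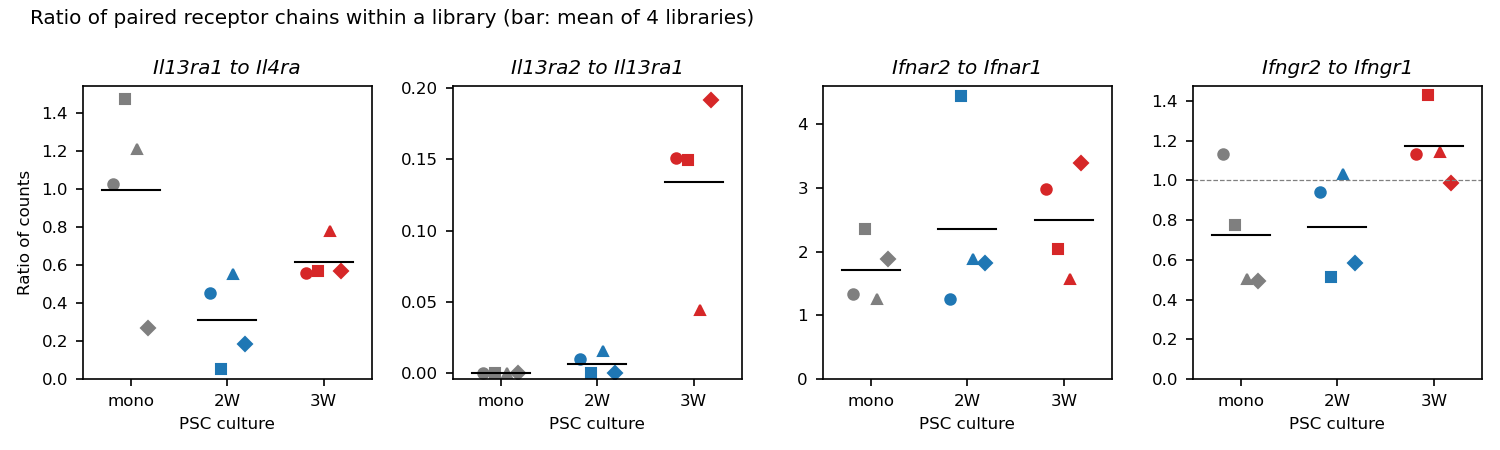
Ratio of the counts of 2 chains within a library (y axis, from 0, its range set for each pair) in mono-PSCs, 2W-PSCs and 3W-PSCs (x axis). Each symbol is a library, with its shape giving the replicate number, and the bar is the mean of 4. Il13ra1 to Il4ra is above 1 in 3 mono-PSC libraries and in no co-culture library, and Ifngr2 to Ifngr1 averages 0.726 in mono-PSCs and 1.17 in 3W-PSCs, with the dashed line at 1.

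Both chains of the type I interferon receptor were higher in 3W-PSCs, set against mono-PSCs, Ifnar2 more clearly than Ifnar1. Ifnar2 (ENSMUSG00000022971, chromosome 16, 91372783 to 91405589, plus strand) stood at 30.2, 25.5, 22.7 and 28.7 CPM in mono-PSCs, at 26.9, 29.4, 33.1 and 31.9 CPM in 2W-PSCs, and at 60.2, 59.7, 65.4 and 73.5 CPM in 3W-PSCs. The mono-PSC and 2W-PSC libraries of Ifnar2 overlapped, and every 3W-PSC library lay well above both. Its log2 fold change in 3W-PSCs was 1.26 (SE 0.16, edgeR adjusted p = 2.14e-05) against mono-PSCs and 1.09 (SE 0.16, adjusted p = 0.00199) against 2W-PSCs, called in 13 of 13 other settings each. Between 2W-PSCs and mono-PSCs Ifnar2 was not called (0.20, SE 0.20, adjusted p = 0.999).

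Ifnar1 (ENSMUSG00000022967, chromosome 16, 91485238 to 91507441, plus strand) stood at 22.5, 10.8, 18.1 and 15.2 CPM in mono-PSCs and at 21.4, 6.62, 17.5 and 17.5 CPM in 2W-PSCs. In 3W-PSCs it stood at 20.2, 29.3, 41.6 and 21.7 CPM. The 3W-PSC libraries overlapped those of both other cultures, and replicate 3 was highest. The difference from mono-PSCs was called (0.75, SE 0.26, edgeR adjusted p of Ifnar1 = 0.0425), but in only 7 of 13 other settings and 3 of the 8 fits without a library, and without 3W-PSC replicate 3 it was 0.50 (adjusted p = 0.178). Against 2W-PSCs Ifnar1 was not called (0.83, SE 0.34, adjusted p = 0.152), nor was it in 2W-PSCs against mono-PSCs (-0.06, SE 0.35, adjusted p = 0.999). Counts of Ifnar2 exceeded those of Ifnar1 in all 12 libraries, with ratios of 1.25 to 2.36 in mono-PSCs, 1.26 to 4.44 in 2W-PSCs and, in 3W-PSCs, 1.57 to 3.39, which overlap.

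Of the chains of the interferon γ receptor, Ifngr2 passed the test in 3W-PSCs and Ifngr1 did not, and the difference between the chains was not tested. Ifngr2 (ENSMUSG00000022965, chromosome 16, 91547072 to 91565623, plus strand), the signalling chain, stood at 52.5, 46.4, 38.2 and 41.3 CPM in mono-PSCs, at 68.6, 40.2, 78.7 and 59.2 CPM in 2W-PSCs, and at 91.8, 99.0, 101 and 96.7 CPM in 3W-PSCs. The 3W-PSC libraries were close together above all others, and 2W-PSC replicate 2 alone lay within the mono-PSC range. Ifngr2 was called in 3W-PSCs against mono-PSCs (1.12, SE 0.15, edgeR adjusted p = 3.79e-05) but not against 2W-PSCs (0.66, SE 0.20, adjusted p = 0.0572), where it was called in 4 of 13 other settings, DESeq2 and the fit without 2W-PSC replicate 2 among them (0.50, adjusted p = 0.0248). For 2W-PSCs against mono-PSCs it was not called (0.49, SE 0.23, adjusted p = 0.694).

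Ifngr1 (ENSMUSG00000020009, chromosome 10, 19591949 to 19610229, plus strand), the chain that binds interferon γ, stood at 46.3, 59.9, 75.8 and 83.5 CPM in mono-PSCs, at 72.8, 78.5, 76.3 and 102 CPM in 2W-PSCs, and at 81.0, 69.3, 88.2 and 97.8 CPM in 3W-PSCs. The libraries of the 3 cultures overlapped. Its log2 fold change was 0.32 (SE 0.22, edgeR adjusted p = 0.928) in 2W-PSCs and 0.33 (SE 0.18, adjusted p = 0.199) in 3W-PSCs, against mono-PSCs, and 0.03 (SE 0.17, adjusted p = 0.927) between the co-cultures. Ifngr1 had the highest mean of the 10 genes in mono-PSCs (66.4 ± 16.6 CPM, SD, n = 4) and in 2W-PSCs (82.3 ± 13.1 CPM), whereas in 3W-PSCs Ifngr2 (97.1 ± 3.99 CPM) had passed Ifngr1 (84.1 ± 12.03 CPM), although their libraries overlapped. The ratio of Ifngr2 to Ifngr1 counts was 0.726 ± 0.30 in mono-PSCs, 0.767 ± 0.258 in 2W-PSCs and 1.17 ± 0.18 in 3W-PSCs, with ranges that overlap (0.494 to 1.13, 0.513 to 1.03 and 0.988 to 1.43).

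Il10rb (ENSMUSG00000022969, chromosome 16, 91406164 to 91425834, plus strand), the shared chain of the IL-10 family receptors, stood at 20.01, 21.2, 30.2 and 24.0 CPM in mono-PSCs, at 21.3, 8.83, 34.7 and 35 CPM in 2W-PSCs, and at 45.0, 47.0, 45.1 and 51.1 CPM in 3W-PSCs. The 3W-PSC libraries lay within a narrow band above all others, and the 2W-PSC libraries lay both below and above the mono-PSC range. Its log2 fold change was 0.97 (SE 0.18, edgeR adjusted p = 0.000606) in 3W-PSCs against mono-PSCs, called in 13 of 13 other settings. Against 2W-PSCs Il10rb was not called (0.91, SE 0.34, adjusted p = 0.112), but it was without 2W-PSC replicate 2 (0.64, SE 0.19, adjusted p = 0.0297). Between 2W-PSCs and mono-PSCs the value was 0.09 (SE 0.36, adjusted p = 0.999).

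Ifnar2, Il10rb, Ifnar1 and Ifngr2 lie in this order on the plus strand of chromosome 16 within 192.8 kb (91372783 to 91565623). Of the 12 genes annotated there 9 were in the count table, and the 5 that are not receptors of the list had at most 14 counts in any library. One of these, Gm21970, had 0 counts in every library and shares 315 exonic bases with Ifnar2 and 569 with Il10rb on the same strand. How the counting treated reads in such shared bases is not given in the sources used here. In the 3W-PSCs the 4 neighbours differed in level, with 64.7 ± 6.43 CPM for Ifnar2, 47.0 ± 2.84 CPM for Il10rb, 28.2 ± 9.79 CPM for Ifnar1 and 97.1 ± 3.99 CPM for Ifngr2 (SD, n = 4). The ratio of Il10rb to Ifnar2 counts kept within 0.689 to 0.787 in 3W-PSCs and ran from 0.3 to 1.10 in 2W-PSCs.

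**Figure D4:**
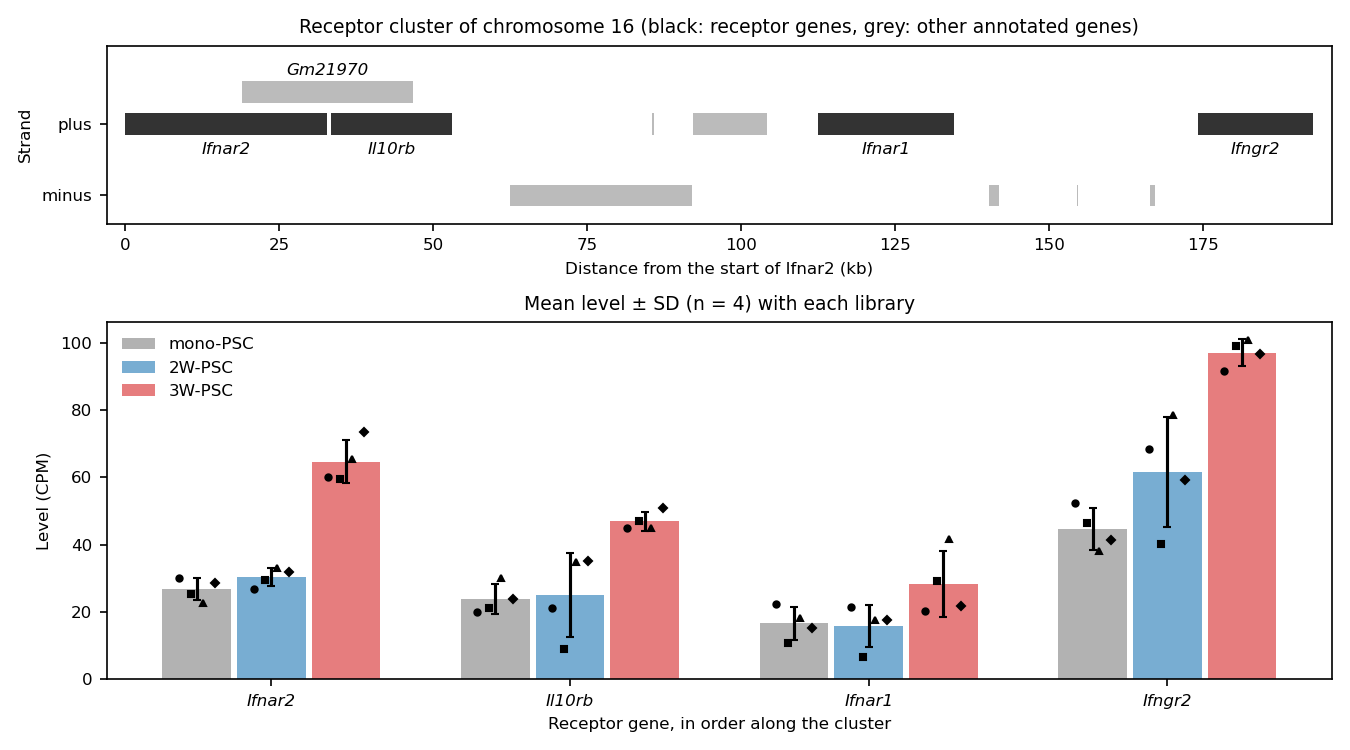
Top, map of the cluster to scale, with the distance from the start of Ifnar2 in kb on the x axis, the strand on the y axis, receptor genes in black and other annotated genes in grey. Bottom, level in CPM (y axis, from 0) of the 4 receptor genes, with bars for the mean, whiskers for the SD of 4 libraries and a symbol for each library. The bar of the 3W-PSCs is the highest for each of the 4 genes, and its whisker overlaps that of the mono-PSCs for Ifnar1 alone.

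Il17ra (ENSMUSG00000002897, chromosome 6, 120463247 to 120487559, plus strand), the shared IL-17 receptor chain, stood at 17.9, 30.7, 31.8 and 37.1 CPM in mono-PSCs, at 30.5, 76.8, 27.9 and 35.3 CPM in 2W-PSCs, and at 30.9, 35.5, 18.8 and 27.7 CPM in 3W-PSCs. Apart from 2W-PSC replicate 2, all libraries lay in 1 common range. The log2 fold change of Il17ra was 0.55 (SE 0.34, edgeR adjusted p = 0.896) in 2W-PSCs and -0.07 (SE 0.24, adjusted p = 0.861) in 3W-PSCs, against mono-PSCs, and -0.58 (SE 0.33, adjusted p = 0.294) between the co-cultures. Without 2W-PSC replicate 2 the first was 0.09 and the last -0.14. In that library Il13ra1, Il10rb, Ifngr2 and Ifnar1 were the lowest of the 2W-PSCs, and Il4ra and Il17ra the highest.

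Il15ra (ENSMUSG00000023206, chromosome 2, 11705290 to 11734317, plus strand), which holds IL-15, was near the limit of detection. It had 4, 2, 1 and 0 counts in mono-PSCs, 3, 0, 0 and 0 counts in 2W-PSCs, and 12, 9, 12 and 7 counts in 3W-PSCs. All 3W-PSC libraries lay above all others, at 0.909 to 1.59 CPM. As Il15ra was below the count filter in every comparison, the means were compared with two-sided exact permutation tests, which gave p = 0.0286 for 3W-PSCs against mono-PSCs (1.27 against 0.318 CPM) and p = 0.0286 against 2W-PSCs (0.106 CPM), the smallest p the design allows, and p = 0.371 for 2W-PSCs against mono-PSCs. Set against 3 counts per library, Il15ra in 3W-PSCs was at least 2.39-fold above 2W-PSCs. These p-values are not adjusted for the 4 tests of this kind that were made.

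Il4ra and Il17ra changed place most in the order of the levels. In mono-PSCs the mean levels fell in the order Ifngr1, Ifngr2, Il17ra, Ifnar2, Il10rb, Ifnar1, Il4ra, Il13ra1, Il15ra and Il13ra2. Neighbours in that order overlapped in their libraries except between Ifngr2 and Il17ra and between Il13ra1 and Il15ra. Il4ra was in place 7 in mono-PSCs (9.51 ± 4.90 CPM), in place 4 in 2W-PSCs (39.7 ± 8.01 CPM) and in place 3 in 3W-PSCs (72.8 ± 21.1 CPM, SD, n = 4), while Il17ra moved from place 3 in mono-PSCs to place 7 in 3W-PSCs (28.2 ± 7.05 CPM). In 3W-PSCs neighbours did not overlap between Ifnar2 and Il10rb, between Ifnar1 and Il13ra2 and between Il13ra2 and Il15ra. Among the 18377 genes with a count, Il4ra moved from percentile 54.9 of the mean levels in mono-PSCs to percentile 77.3 in 2W-PSCs and 86.5 in 3W-PSCs.

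Of 25 chains that pair with these receptors or belong to the same families, most were hardly counted. No library held a count of 7 of them, 12 had at most 10 counts in every library, and 6 had more. Il10ra, without which Il10rb cannot bind IL-10, had at most 3 counts, and Il2rg, the partner of Il4ra in blood cells, at most 7. Both were counted in 3W-PSC replicate 4 alone, the library with the most macrophage marker RNA. The IL-22 chain Il22ra1 had at most 1 count. Il17rc, which joins Il17ra in the receptor for IL-17A, stood at 20.5 ± 4.01 CPM in mono-PSCs, in 2W-PSCs at 16.6 ± 3.18 CPM and in 3W-PSCs at 15.2 ± 4.48 CPM. Crlf2, the TSLP receptor chain, stood at 54.1 ± 10.6, 58.2 ± 12.5 and 41.7 ± 7.86 CPM. The edgeR test called 0 of the 3, 3 and 5 partner chains tested, with 0, 0 and 1 at an unadjusted p under 0.05, while DESeq2 called 1, Il12rb1, higher in 3W-PSCs, set against mono-PSCs (at most 10 counts against 0).

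Of a list of 20 cytokines, 18 of them ligands of receptors that hold one of these chains, 3 had a count in any library and 2 were tested. Il2 and Il21, which belong to the same cytokine family, bind none of the 10 chains. Il4, Il13, Il10, Ifng, Ifnb1 and Il17a had none. Il15, the ligand of Il15ra, rose in 3W-PSCs against mono-PSCs (9.03 against 4.66 CPM, log2 fold change 0.94, SE 0.32, edgeR adjusted p = 0.0362). Il2 fell by 0.73 on the log2 scale in the same comparison (15.4 against 25.5 CPM, SE 0.26, adjusted p = 0.042), with libraries that overlapped. Neither was called by edgeR without 3W-PSC replicate 4, nor in the other comparisons. At an unadjusted p under 0.05 there were 0 in 2W-PSCs against mono-PSCs and 1 in each direction between the co-cultures. Between the co-cultures DESeq2 called 1 of the list lower and 0 higher. A count of 0 allows up to 3 counts per library, and these files hold no RNA of the PCCs or MØs.

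Of the kinases and STAT factors downstream of the receptors, 6 of the 13 tested rose from mono-PSCs to 3W-PSCs and 0 fell. Stat3, the factor of Il10rb receptors, rose from 68.3 ± 8.28 to 237 ± 42.1 CPM (log2 fold change 1.79, SE 0.17, edgeR adjusted p = 4.63e-07). Jak2, the kinase bound by Ifngr2, rose from 25.5 ± 5.86 to 84.3 ± 27.5 CPM (1.72, SE 0.23, adjusted p = 3.24e-05). The study itself named Stat3 and Jak2 as raised in 3W-PSCs, so their rise is no independent finding. Stat2, a factor of the type I interferon receptor, rose from 48.5 ± 19.4 to 157 ± 16.4 CPM (1.69, SE 0.23, adjusted p = 3.47e-05). Irf9 (0.56) and Jak3 (3.08) were also called. Jak3, a kinase of blood cells, stood at only 0.387 CPM in mono-PSCs and 3.03 CPM in 3W-PSCs. It passed the count filter only in comparisons with 3W-PSCs. Without 3W-PSC replicate 4, the library with the most macrophage marker RNA, 5 of the list were called in 3W-PSCs against mono-PSCs. Which genes these were is not reported here, and a part of macrophage RNA in the Jak3 level was not tested. Stat6, the factor that Il4ra activates, was not called in any comparison, at 46.3 ± 4.91 CPM in mono-PSCs, in 2W-PSCs at 49.5 ± 8.43 CPM and in 3W-PSCs at 51.3 ± 4.51 CPM (log2 fold changes of 0.11, 0.14 and 0.05).

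Jak1, which serves all of the JAK-dependent receptors here, was at 292 ± 36.6, 333 ± 89.6 and 361 ± 29.6 CPM in mono-PSCs, 2W-PSCs and 3W-PSCs and was not called, nor was Tyk2, the kinase of Ifnar1 and Il10rb, at 8.91 ± 3.29, 8.65 ± 0.63 and 10.6 ± 1.93 CPM. In 3W-PSCs against 2W-PSCs 4 of 13 were called higher (Stat3, Jak2 and Stat2 among them) and 0 lower. For 2W-PSCs against mono-PSCs 0 of 12 were called by edgeR, 2 were higher at an unadjusted p under 0.05 and DESeq2 called 1. The median log2 fold change of the list was 0.10, 0.56 and 0.70 in 2W-PSCs against mono-PSCs, 3W-PSCs against mono-PSCs and 3W-PSCs against 2W-PSCs. Jak3 entered the medians with 3W-PSCs alone, so these were partly set by the filter. Among the 12 genes tested in every comparison the medians were 0.53 in 3W-PSCs against mono-PSCs and 0.50 between the co-cultures.

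Negative regulators of these receptors rose in part. In 3W-PSCs against mono-PSCs 9 of 19 were called higher and 0 lower (1 lower at an unadjusted p under 0.05, 0 by DESeq2). Usp18, which binds Ifnar2 and dampens type I interferon signals, was the one regulator called in all 3 comparisons, with log2 fold changes of 1.55 (SE 0.24, edgeR adjusted p = 0.0076) in 2W-PSCs against mono-PSCs, 2.40 (SE 0.22, adjusted p = 4.39e-07) in 3W-PSCs against mono-PSCs and 0.87 (SE 0.22, adjusted p = 0.028) between the co-cultures. The largest changes called in 3W-PSCs against mono-PSCs were those of Zc3h12a (2.52), Usp18 (2.40), Socs1 (2.11) and Socs3 (1.89), where the Socs proteins block JAK kinases and Zc3h12a cuts inflammatory mRNAs. Between the co-cultures 4 of 19 were called higher (Socs3, Zc3h12a, Usp18 and Socs6) and 0 lower. Without 2W-PSC replicate 2 it was 8 higher and 1 lower, and without 3W-PSC replicate 4 it was 1 higher and 0 lower. At an unadjusted p under 0.05, 9 were higher and 1 lower, and DESeq2 called 4 higher and 1 lower. The phosphatases Ptpn1, Ptpn2, Ptpn6 and Ptpn11 and the 4 Pias genes were not called in any comparison.

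Genes known to respond to the ligands of these receptors were read by the same calls. Of the type I interferon response genes 0 of 11 tested were called in 2W-PSCs against mono-PSCs (at an unadjusted p under 0.05, 8 were higher and 1 lower, and DESeq2 called 3), 14 of 15 were higher in 3W-PSCs against mono-PSCs and 12 of 15 between the co-cultures, with 0 lower. Their median log2 fold change was 0.70, 2.72 and 1.64. Oas1a, which makes the activator of an RNase, was at least 26.1-fold and Oas3 at least 16.3-fold above mono-PSCs in the 3W-PSCs, and Oas2 (log2 fold change 3.70, SE 0.35) and Mx1 (3.46, SE 0.76, at most 7 counts in mono-PSCs) also rose. These 4 genes passed the count filter only where 3W-PSCs, in which they were high, were compared, so their calls were partly set by the filter. Among the 11 tested in every comparison 10 were higher in 3W-PSCs against mono-PSCs and 9 between the co-cultures, with medians of 2.16 and 1.43. Ifit2 was not called, at 34.3 CPM in 3W-PSCs against 39.0 CPM in mono-PSCs. Without 2W-PSC replicate 2 the called number was 3 in 2W-PSCs against mono-PSCs and 14 between the co-cultures.

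Of the interferon γ response genes 1 of 10 was called higher in 2W-PSCs against mono-PSCs (Gbp3, 1.43, SE 0.29, edgeR adjusted p = 0.039), 12 of 12 in 3W-PSCs against mono-PSCs and 10 of 12 between the co-cultures, with medians of 0.50, 2.87 and 2.04. Gbp5 was at least 19.8-fold and the chemokine Cxcl9 at least 11-fold above mono-PSCs in the 3W-PSCs, and the proteasome subunit Psmb8 (3.81, SE 0.29) and the GTPase Gbp3 (3.53, SE 0.23) also rose. Gbp5 and Cxcl9 passed the count filter only in comparisons with 3W-PSCs, in which they were high, while Irf8 and Ciita stayed below it and were not tested. Among the 10 tested in every comparison 10 were higher in 3W-PSCs against mono-PSCs and 8 between the co-cultures, with medians of 2.33 and 1.86. Many of these genes respond to both kinds of interferon, and the lists do not tell the receptors apart.

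Of 12 genes of the IL-4 and IL-13 response 11 were in the table, 6 had a count and 4 were tested. Between 2W-PSCs and mono-PSCs 0 of 4 were called (1 higher at an unadjusted p under 0.05, 1 by DESeq2). In 3W-PSCs against mono-PSCs the matrix gene Postn (2.32, SE 0.25, edgeR adjusted p = 2.41e-06) and the adhesion gene Vcam1 (2.22, SE 0.18, adjusted p = 7.04e-08) were called higher, Tgfb1 and Clca1 were not, and Vcam1 alone was called between the co-cultures (2.24, SE 0.18). Both Postn and Vcam1 also respond to other signals. Arg1 and Retnla, also on the list, had 0 counts in all 12 libraries. Whether IL-4 or IL-13 acted on these PSCs was not tested.

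Of the IL-17 response genes 1 of 6 was called higher in 2W-PSCs against mono-PSCs (Mmp3), 10 of 10 in 3W-PSCs against mono-PSCs and 9 of 10 between the co-cultures, with medians of 0.64, 3.67 and 2.75. With genes near 0 in mono-PSCs placed at their lower bounds the second median was 3.18. The matrix protease Mmp3 was at least 152-fold higher in 3W-PSCs (76.5 CPM) than in mono-PSC culture (0.191 CPM). The protease Mmp13 (55.9 against 0.270 CPM, at most 4 counts in mono-PSCs), the iron-binding Lcn2 (at least 9.46-fold) and the chemokine Cxcl2 (at least 7.39-fold) were called as well. Mmp13, Lcn2, Cxcl2 and Il6 passed the count filter only in comparisons with 3W-PSCs, in which they were high, so their calls were partly set by the filter. Among the 6 genes tested in every comparison 6 were higher in 3W-PSCs against mono-PSCs and 5 between the co-cultures, with medians of 2.77 and 1.69. These genes are also known to respond to TNF and IL-1. Il17ra itself was not called.

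Each receptor gene that passed the filter was set beside the 3 genes whose log2 CPM was most like it over the 12 libraries, out of 8699 other genes (8700 for Il13ra2) with a mean log2 CPM above 3. The Pearson r values describe these libraries, which share cultures, depth and the library that stood apart. For Il13ra2 they were Stat3 (0.975), Pros1 (0.974) and Ifi203 (0.970). For Ifnar2 they were Tmem176b (0.980) and the interferon-regulated Dtx3l (0.976) and Herc6 (0.972). For Il13ra1 they were Psrc1 (0.975), G3bp2 (0.965) and Nmi (0.960), and for Il4ra Zfp217 (0.963), Cpt1c (0.958) and Gria3 (0.954). Ifngr2 was most like Parvb (0.975), Ext1 (0.972) and Actn1 (0.965). Il10rb was most like Gart (0.945), Ackr3 (0.944) and Esd (0.938), and Ifnar1 like Atic (0.973), Ralgapb (0.972) and Traf4 (0.934). Il17ra (Fibp, 0.949, Ttc13, 0.944, and Atp9b, 0.939) and Ifngr1 (Pam, 0.894, Qsox1, 0.865, and Apol9a, 0.838) had other genes again. None of these like genes was shared between receptors.

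Among the receptors themselves the highest r was 0.933, between Ifnar2 and Il13ra2, and Ifngr2 and Il13ra1 followed at 0.905. Il17ra had a negative r with 6 of the other 8, down to -0.771 with Ifnar1. The 2 chains of a receptor were not the closest pairs, with 0.593 for Ifnar1 and Ifnar2, 0.283 for Ifngr1 and Ifngr2 and 0.574 for Il4ra and Il13ra1.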

How the data were processed

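The authors prepared QuantSeq 3′ FWD libraries from poly(A) RNA of sorted PSCs, read single ends of 75 bases, checked reads with FastQC, and used STAR on GRCm38 and featureCounts with Ensembl genes. The submitters' notes also list DESeq2. The deposited file holds raw counts, which are whole numbers with unequal totals, while the methods mention normalised values. Removal of PCR copies is not given in the sources used here, so floors cover counting error only.

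The 12 libraries, 4 a culture, were scaled by TMM in edgeR 4.0.16 (R 4.3.3), filtered with filterByExpr and compared in pairs of cultures by glmQLFit and glmQLFTest with no block. Levels are CPM scaled over the 12 libraries, and the SE is the log2 fold change over the root of F. For genes with at most 3 counts in each library of the lower culture, folds are bounds against 3 counts per library. Log2 CPM for likeness took a prior count of 2. Positions come from GENCODE M21 and promoters from RefSeq, both on GRCm38.

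All 10 receptor genes are named. Each list names up to 4 called genes with the largest change, and each JAK, STAT or partner chain of a receptor. Other list genes were added after their values were seen. Some items of the lists are counted but not reported here by name. The receptors and lists were chosen with earlier results of these data known. The alternatives were DESeq2 size factors, no filter, 1 fit of all libraries, a block on replicate number, leaving out each library, and DESeq2 1.42.0. Scripts were tested on simulated data.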

Additional observations from a re-analysis of the deposited data

Results flagged for a closer look

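In a group of 4 libraries, the highest or lowest was singled out where its gap to the nearest other library exceeded Dixon's 95% value for its share of the whole range. This held for 2 of the 29 sets of 4 libraries checked. Chance alone gives about 1 in 20 for continuous values, a rate that does not hold for sets with counts near 0. Il17ra in 2W-PSC replicate 2 was at 76.8 CPM, with the nearest library at 35.3 CPM (gap 0.848 of the range). Il15ra in 2W-PSC replicate 1 was at 0.422 CPM, from 3 counts, with the other 3 libraries at 0. Any count beside 3 libraries at 0 would have been singled out, so nothing is read from this one.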

How the results depend on the processing

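Of 338 recomputed values, 304 kept their direction and side of the threshold, 18 lost a call, 5 gained one and 11 changed sign. The receptor genes called numbered 0 to 1 in 2W-PSCs against mono-PSCs when a library was left out (0 without mono-PSC replicate 3), 6 to 7 in 3W-PSCs against mono-PSCs and 2 to 6 between the co-cultures (2 without 3W-PSC replicate 1 or 2 or 2W-PSC replicate 4, 6 without 2W-PSC replicate 2). The genes of the pathway lists called in 2W-PSCs against mono-PSCs were 3, and 6 with no filter, 11 in 1 fit of all 12 libraries, 9 by DESeq2 and 2 to 9 with a library left out. With the replicate block they were 6, and Il10rb in 2W-PSCs against mono-PSCs turned to -0.0414. Same-numbered libraries deviated together with r of 0.0989 to 0.338, 0.00224 to 0.107 and -0.0477 to 0.155 in the 3 comparisons. Of 4 libraries, 3, 2 and 2 matched their own number best. Whether libraries of the same number were made together is not given in the sources used here. The main fits took no pairs, and the block shows the calls when the numbers are taken as pairs. Under the block Il4ra was not called between the co-cultures (adjusted p = 0.0692). With a library left out, Il10rb ran from -0.123 to 0.346 and Ifnar1 from -0.253 to 0.177 in 2W-PSCs against mono-PSCs, Il17ra from -0.252 to 0.0845 in 3W-PSCs against mono-PSCs and Ifngr1 from -0.0449 to 0.142 between the co-cultures, none of them called. Over all genes, 111 were called in 2W-PSCs against mono-PSCs, and 177 with no filter, 262 in 1 fit and 277 by DESeq2, while 1230 were called between the co-cultures and 752 with the block. The cause of these changes was not tested. Low counts limit Il13ra2 and Il15ra.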
